A study of Mus musculus with 8 samples.

Results

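C57BL/6, the inbred strain from which the mouse reference genome was built, was compared with 7 other inbred strains in 5 cell clusters of the striatum. Its members were the annotated nuclei that the deposited table assigns to the strain from their RNA reads, 6557 of 55672 annotated nuclei, against 49115 nuclei of the other strains. Of the C57BL/6 nuclei, 5676 lay in the clusters compared, namely 1854 Drd1+ neurons, 1445 Drd2+ neurons, 1518 oligodendrocytes, 518 astrocytes and 341 macrophages. Counts of the nuclei of 1 mouse in 1 cluster were summed into 1 library, so each cluster held 4 C57BL/6 libraries and 28 others.

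The study measured nuclear RNA and open chromatin of single nuclei of the striatum in 32 mice of 12 weeks. The other 7 strains were 129S1/SvImJ, A/J, NOD/ShiLtJ and NZO/HlLtJ, which are classical laboratory strains, and CAST/EiJ, PWK/PhJ and WSB/EiJ, which descend from wild mice. Nuclei were pooled in 4 batches, with every strain present once in each, and the labels name no treatment and no engineered allele for any mouse. The deposited table writes C57BL/6NJ and the design text C57BL/6J, which are substrains separated for many generations, so the substrain cannot be told apart from the labels. The design text gives equal numbers of male and female mice per batch. In Drd1+ neurons, transcripts of the Y chromosome exceeded Xist in 2 C57BL/6 mice and 16 others, and Xist exceeded them in 2 and 12. Over all mice this split is not equal, unlike that of the design text. Sex was not a term in the fits.

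The striatum is the main input nucleus of the basal ganglia. Its projection neurons are inhibitory and fall into Drd1+ cells of the direct pathway, which promote movement, and Drd2+ cells of the indirect pathway, which restrain it. Oligodendrocytes wrap axons in myelin, astrocytes clear transmitter and shape synapses, and the macrophage cluster is defined by genes of microglia, the resident immune cells of the brain. A gene that carries a regulatory variant can differ between strains in 1 of these cell types and not in the others, so each cluster was compared by itself.

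C57BL/6 mice gave 1458 to 2095 nuclei each (944 to 4416 in the others) and a median of 3269.5 to 5023 unique molecular identifiers (UMIs) per nucleus (2819 to 5762). Summed libraries of C57BL/6 held 2326897 to 4801780 counts for Drd1+ and 1781733 to 3100909 for Drd2+ neurons. Those of oligodendrocytes held 443339 to 922025, of astrocytes 154759 to 429929 and of macrophages 90691 to 175390, each range inside that of the other strains. In C57BL/6 the markers checked were each highest in the cluster named for their cell type. Drd1 was at 206 CPM, the count scaled to a library of 1000000 counts, in Drd1+ and 8.44 in Drd2+ neurons. Drd2 was at 11.9 and 454, Mog at 1080 in oligodendrocytes, Aqp4 at 416 in astrocytes and Csf1r at 1150 in macrophages. Some markers were also seen well outside their cluster. Mbp was at 7420 CPM in oligodendrocytes, 3010 in astrocytes, 3530 in macrophages and 905 in Drd1+ neurons. Tac1 was at 258 CPM in Drd1+ neurons and 103 in macrophages, and Penk at 1200 in Drd2+ neurons and 243 in macrophages. The source of these levels was not tested. Summed levels of the marker lists of other cell types overlapped between C57BL/6 and the other mice in every cluster. Single markers of another glial, vascular or precursor type were nevertheless called in each cluster. Among them were Gpc5 (-0.53) in Drd1+ neurons, Slc1a2 (-0.25) in Drd2+ neurons, Slc1a3 (-0.38), Apoe (-0.24) and Apbb1ip (2.79) in oligodendrocytes, Vcan (1.13) in astrocytes, and Slc1a3 (-0.69) and Pecam1 (-1.52, a call lost in 6 of 9 alternatives, adjusted p up to 0.565) in macrophages, as log2 fold changes. Of these calls, all but that of Apbb1ip were lost under some alternative. Without the batch as a block, edgeR gave adjusted p = 0.0794 for Gpc5, 0.478 for Slc1a2, 0.32 for Apoe and 0.0819 for Slc1a3 in macrophages. It gave 0.0754 for Slc1a3 in oligodendrocytes without batch 4, and 0.541 for Vcan against the classical laboratory strains. The part of these markers in the results was not tested. Of the 54141 barcode sequences, 1517 occurred in more than 1 batch, and 339 C57BL/6 nuclei shared a sequence with a nucleus of another batch.

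Cluster shares, as a percent of the annotated nuclei of each mouse, were compared first. Drd1+ neurons made up 31.1%, 28.5%, 31.0% and 21.2% of nuclei in the C57BL/6 mice of batches 1 to 4, and 19.8% to 38.4% in the others, with a median of 27.5%. The mean share of C57BL/6 against the others was 22% ± 3.06 (SD, n = 4) against 24.2% ± 2.94 (n = 28) for Drd2+ neurons, 23.2% ± 2.3 against 21.3% ± 5.4 for oligodendrocytes, 7.95% ± 1.98 against 8.44% ± 2.39 for astrocytes and 5.23% ± 0.929 against 4.69% ± 1.14 for macrophages. None of the 5 differences passed the threshold in the exact two-sided permutation test within batches. The smallest adjusted p of that exact test was 0.562, for Drd2+ neurons, with an unadjusted p of 0.112. One C57BL/6 mouse, at 18% Drd2+ neurons, was below the lowest of the others (19.0%), and the C57BL/6 mice were within the range of the others for the 4 remaining clusters.

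C57BL/6 differed from the mean of the other strains in every cluster, and more genes were higher than lower in each. Genes are counted as called where edgeR's quasi-likelihood test gave an adjusted p below 0.05. In Drd1+ neurons 1873 of 13431 tested genes were called (13.9%), 1076 of them higher (8.01%) and 797 lower (5.93%). In Drd2+ neurons 1423 of 12799 were called (11.1%), 879 higher (6.87%) and 544 lower (4.25%). Oligodendrocytes had 748 of 9082 genes called (8.24%), 477 higher (5.25%) and 271 lower (2.98%). Astrocytes had 276 of 8207 (3.36%), 185 higher (2.25%) and 91 lower (1.11%), and macrophages 189 of 3858 (4.9%), 134 higher (3.47%) and 55 lower (1.43%). The median absolute log2 fold change among called genes was 0.485 in Drd1+ neurons and 1.02 in macrophages. Both are medians of called genes alone, from libraries of unlike depth and unlike numbers of tested genes. They therefore do not compare the size of strain differences between these clusters. The excess of higher calls shrank under some alternatives. Of the called genes, 57.4% were higher in Drd1+ neurons, 51.9% against the 4 classical laboratory strains alone and 51.2% at a log2 change of 1 or more. In Drd2+ neurons these shares were 61.8%, 57.1% and 50.8%. In macrophages 70.9% were higher, 55.3% against the classical strains and 82.8% without the filter on low counts. Without the mice of batch 1 the genes called in either direction numbered 1238 in Drd1+ neurons, 485 in oligodendrocytes, 164 in astrocytes and 115 in macrophages. They were 158 in astrocytes without batch 2, and 147 in astrocytes and 125 in macrophages without batch 4. With all libraries thinned to 27325 counts, which also left fewer genes to test, 5 of 720 genes were called in Drd1+ and 6 of 719 in Drd2+ neurons. Oligodendrocytes then had 29 of 743, astrocytes 18 of 717 and macrophages 36 of 851.

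An excess of higher calls was found for other strains too, and in the main fit its size in C57BL/6 was not the greatest in any cluster. The other strains were not compared in this way under the alternatives. When each strain was set against the mean of its other 7 in Drd1+ neurons, 62.8% of the called genes were higher in 129S1/SvImJ, 61.3% in A/J, 59.2% in NOD/ShiLtJ, 57.4% in C57BL/6, 57% in WSB/EiJ, 55.7% in NZO/HlLtJ, 51.4% in CAST/EiJ and 49.5% in PWK/PhJ. In Drd2+ neurons C57BL/6 (61.8%) came after NOD/ShiLtJ (62.4%), and in macrophages (70.9%) after NZO/HlLtJ (72.8%), with the other 6 strains lower in each. In oligodendrocytes 2 strains and in astrocytes 3 strains were above C57BL/6. The genome builds in the submitters' processing notes, mm10 and GRCm38, hold C57BL/6J sequence. The part of read alignment in the differences between strains was not tested.

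In Drd1+ neurons the number of called genes was lowest against 129S1/SvImJ, at 1124, followed by A/J (1290), NOD/ShiLtJ (1495), NZO/HlLtJ (1851), WSB/EiJ (1857), CAST/EiJ (3751) and PWK/PhJ (3924). The count against 129S1/SvImJ was also the lowest in Drd2+ neurons (871) and astrocytes (117), but in macrophages NZO/HlLtJ had fewer (107 against 146), and in oligodendrocytes NZO/HlLtJ (502) and 129S1/SvImJ (503) were level. In each cluster the highest counts were those against CAST/EiJ and PWK/PhJ, mice of other subspecies. In oligodendrocytes these were 1364 and 1274 genes, and the other 5 strains gave 502 to 790. In macrophages they were 314 and 380, and the other strains gave 107 to 185. The 7 pairs share the C57BL/6 libraries and are not independent.

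**Figure D1:**
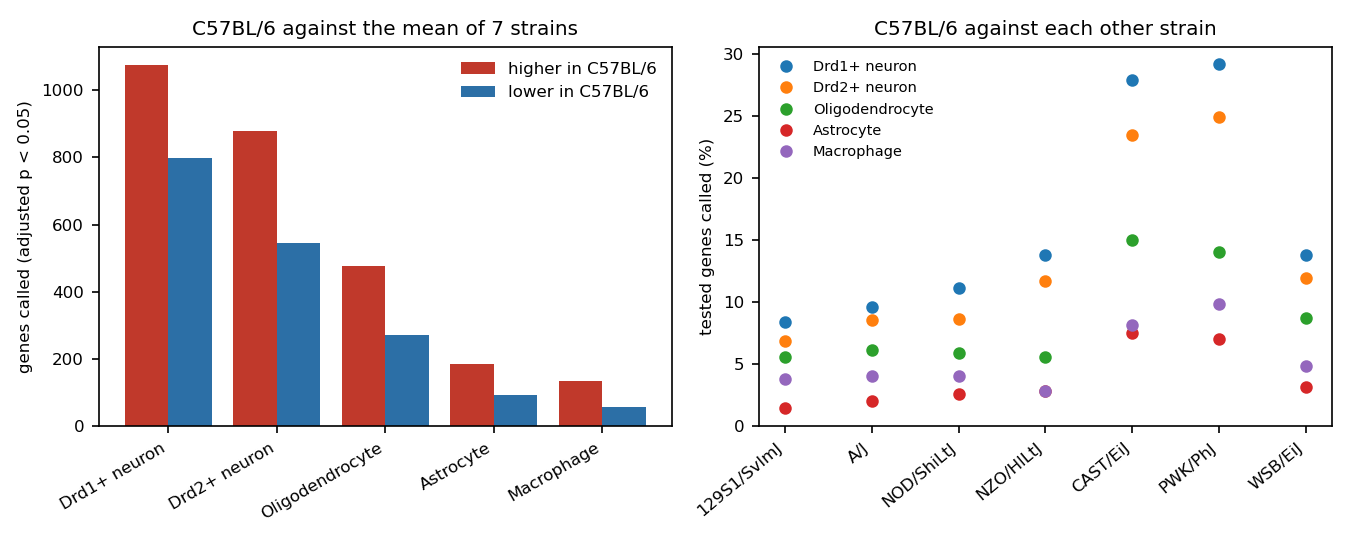
Left, number of genes called higher (red) or lower (blue) in C57BL/6 than the mean of 7 strains, by cluster, at an adjusted p under 0.05. Right, percent of tested genes called between C57BL/6 and each other strain, by cluster. Higher calls outnumber lower calls in all 5 clusters, and CAST/EiJ and PWK/PhJ give the highest percentages.

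Few genes set C57BL/6 apart from every other strain. Genes called in the same direction against each of the 7 strains numbered 60 for Drd1+ neurons (0.447% of tested genes; 42 higher, 18 lower) and 40 for Drd2+ neurons (0.313%; 25 and 15). Oligodendrocytes had 22 (0.242%; 18 and 4). Astrocytes had 5 (0.0609%; 4 and 1) and macrophages 4 (0.104%; 1 and 3). All 4 C57BL/6 libraries lay outside the range of the other 28 for 49 genes of Drd1+ neurons (0.365%) and 39 of Drd2+ neurons (0.305%). Oligodendrocytes had 22 such genes (0.242%), astrocytes 5 (0.0609%) and macrophages 3 (0.0778%). Genes described first below are those with the greatest differences among these. The count over all 7 pairs fell to 37 and 39 in Drd1+ neurons without batches 1 and 2. Leaving out any 1 batch gave 24 to 26 in Drd2+ neurons, 12 to 14 in oligodendrocytes and 1 to 2 in astrocytes.

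In Drd1+ neurons the greatest decrease was that of Ntn4, which encodes netrin-4, a secreted protein related to laminins. It had 1 count in the 4 C57BL/6 libraries together and 1347 in the others. Its level was 0.221, 0, 0 and 0 CPM in the C57BL/6 mice of batches 1 to 4, and 0.693 to 45.3 CPM in the others, with a median of 12.4. No mouse of another strain was as low, though PWK/PhJ came near with a mean of 1.18 CPM, and NOD/ShiLtJ was highest at 38.6. The summed rate was 188 times higher in the other strains, with a 95% interval of 33.6 to 7420 that covers counting error only (log2 fold change -6.47 ± 0.53 SE, adjusted p = 7.52e-13). Ntn4 lies on the plus strand of chromosome 10, at 93641049 to 93745972 in GRCm38.p6.

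Cfap54, a gene of motile cilia and sperm tails, lies 558 kb before Ntn4 on the same chromosome (92775609 to 93083487) and was also lower. Its level was 28.1, 35.2, 31.6 and 32.4 CPM in C57BL/6 and 66.5 to 251 CPM in the others, with a median of 182. The C57BL/6 mice were below all others, and PWK/PhJ was again the nearest strain at 75.2 CPM (log2 fold change -2.38 ± 0.08, adjusted p = 7.69e-26). Dnah6, an axonemal dynein heavy chain, stood at 2.65, 1.96, 2.05 and 3.03 CPM against 5.59 to 165 (median 95). For Dnah6 the strains formed separate levels, with CAST/EiJ at 7.87 and WSB/EiJ at 10.3 CPM next to C57BL/6 and PWK/PhJ at 156.

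Phldb2 encodes a protein that anchors microtubules at the cell cortex. Its level was 0.884, 0.652, 0.82 and 0.432 CPM in C57BL/6 and 1.04 to 31.6 CPM in the others, with a median of 23.5. C57BL/6 shared its low position with CAST/EiJ (2.6 CPM) and PWK/PhJ (2.03 CPM), yet no library of these reached its range (log2 fold change -4.14 ± 0.25, adjusted p = 6.32e-18). Lpl, lipoprotein lipase, was at 31.1, 27.1, 38.9 and 34.6 CPM against 45.3 to 120 (median 94.1), and the groups did not overlap (log2 fold change -1.36 ± 0.07, adjusted p = 4.55e-19). Crtac1, a secreted protein that antagonises the Nogo receptor, had a mean of 7.93 ± 0.809 CPM against 18.9 (log2 fold change -1.22 ± 0.16).

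The reference sequence before a listed transcript start of 3 genes is shown because each was nearly absent from one side of a comparison. These were Ntn4 in Drd1+ neurons of C57BL/6, Phldb2 in Drd1+ and Drd2+ neurons of C57BL/6, and Thsd4 in oligodendrocytes of the other strains (below). They were chosen after their values were seen. Each run gives the 250 bases before a transcript start listed in the RefSeq table of GRCm38.p6, which is C57BL/6J sequence, 5′ to 3′ on the gene's strand. For Ntn4 that start is the start of the gene interval. For Phldb2 and Thsd4 it lies inside the gene intervals (45746230 to 45953598 on chromosome 16, and 59966931 to 60522113 on chromosome 9), whose upper ends are the 5′ ends on the minus strand, and the table lists another start for Thsd4, also inside the gene. The sequence at the outer ends of these 2 genes is not shown. Capitals mark GGGCGG, the core bound by Sp1-type factors, and CCAAT, a promoter box, on either strand.
Ntn4, chr10:93640799-93641048, plus strand: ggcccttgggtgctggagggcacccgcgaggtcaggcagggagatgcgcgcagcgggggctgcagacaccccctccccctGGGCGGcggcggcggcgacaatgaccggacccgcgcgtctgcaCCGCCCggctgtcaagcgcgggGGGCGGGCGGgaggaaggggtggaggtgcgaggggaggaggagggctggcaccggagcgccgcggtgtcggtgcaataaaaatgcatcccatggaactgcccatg
Phldb2, chr16:45844379-45844628, minus strand: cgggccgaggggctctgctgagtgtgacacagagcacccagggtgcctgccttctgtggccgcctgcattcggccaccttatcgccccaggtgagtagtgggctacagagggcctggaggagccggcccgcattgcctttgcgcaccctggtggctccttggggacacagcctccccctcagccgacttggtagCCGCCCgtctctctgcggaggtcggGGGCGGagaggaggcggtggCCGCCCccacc
Thsd4, chr9:60511036-60511285, minus strand: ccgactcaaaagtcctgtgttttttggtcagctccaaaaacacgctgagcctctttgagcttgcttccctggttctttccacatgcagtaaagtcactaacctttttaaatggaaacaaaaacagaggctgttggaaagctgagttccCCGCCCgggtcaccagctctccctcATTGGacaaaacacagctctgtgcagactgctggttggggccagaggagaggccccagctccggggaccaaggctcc
The Ntn4 run held GGGCGG 4 times (overlapping copies counted) and was 73.2% G or C. Phldb2 held it 3 times and was 70.0% G or C. The Thsd4 run held GGGCGG once and CCAAT once and was 52.8% G or C. None of the 3 held TATAAA. Among 32851 promoter windows of the same length, 32.7% held GGGCGG, 33.8% CCAAT and 12.4% TATAAA on either strand. The deposited open-chromatin peak near Ntn4 spans chr10:93641073-93642072, just after the start, and the one at the internal start of Phldb2 spans chr16:45843669-45844668. No peak overlapped the bases around the internal Thsd4 start shown. The sequences of the other strains and the accessibility per strain were not analysed here.

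Among the genes that rose in Drd1+ neurons, Ifi27l2b, of the interferon-inducible Ifi27 family, was at 13.3, 17.3, 7.38 and 16 CPM in C57BL/6 and 0 to 4.4 CPM in the others, with a median of 0.793 (log2 fold change 4.96 ± 0.3, adjusted p = 3.13e-16). It has close paralogs beside it, so its count is uncertain. The unnamed gene 2310014F06Rik stood at 12.8, 16.3, 12.3 and 12.5 CPM against 0 to 6.15 (median 1.13), and Aoah, which removes acyl chains from lipopolysaccharide, at 7.07, 18.3, 9.84 and 9.94 against 0.301 to 4.89 (median 1.05). Both groups of mice stood apart for both genes.

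Muc3a, annotated as a membrane mucin, was at 26.1, 30.0, 35.7 and 26.8 CPM in C57BL/6. The other mice had 0.346 to 23.3 CPM, and those near the top were CAST/EiJ, with a mean of 18.6 (log2 fold change 3.09 ± 0.14, adjusted p = 3.99e-22). Mucins form a multigene family with repeats, so this count too is uncertain. Iqsec3, an exchange factor for Arf proteins found at inhibitory synapses, was at 16.3, 17.3, 23.8 and 15.1 CPM against 0.568 to 11.7 (median 3.97; log2 fold change 2.12 ± 0.18). Crocc, which encodes rootletin of the ciliary rootlet, was at 81.3, 89.4, 82.4 and 74.8 CPM against 14.3 to 53.4 (median 22.3; log2 fold change 1.80 ± 0.07). A/J was the nearest strain for Crocc, at 51.5 CPM.

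**Figure D2:**
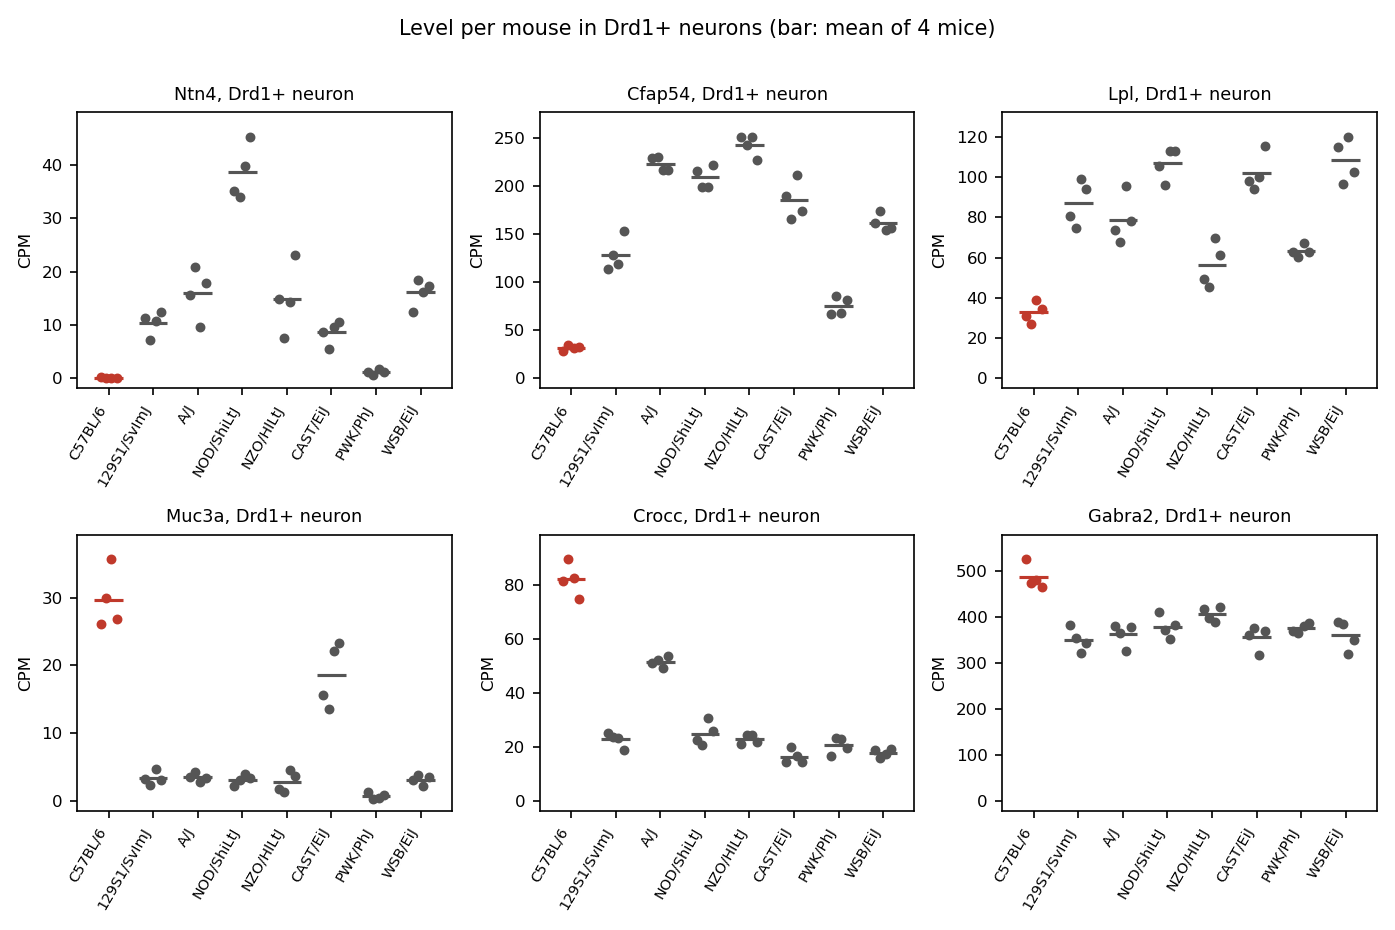
Level of 6 genes in Drd1+ neurons in CPM, 1 point per mouse, with C57BL/6 in red and the other strains in grey. Horizontal bars are means of 4 mice. Ntn4, Cfap54 and Lpl are below all other mice in C57BL/6, and Muc3a, Crocc and Gabra2 are above them. For Ntn4 and Cfap54 the nearest strain is PWK/PhJ.

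In Drd2+ neurons the same rule named several of these genes again, from the same mice. Phldb2 had 2 counts in C57BL/6 and 1391 in the others, and its summed rate was 85.3 times higher in the other strains (95% counting interval 23.6 to 705). Cfap54 was at 25.8, 27.9, 30.4 and 35.7 CPM against 62.8 to 227 (median 175; log2 fold change -2.43 ± 0.08). Lpl was at 30.9, 24.2, 15.7 and 25.0 CPM against 31.0 to 118 (median 84.9; log2 fold change -1.62 ± 0.11). For Lpl the highest C57BL/6 mouse was only just below the lowest of the others. Crocc, Iqsec3, Muc3a, 2310014F06Rik and Dnah6 also lay outside the range of the other mice, with log2 fold changes of 1.80, 1.75, 2.94, 4.12 and -4.16.

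Other genes were named in Drd2+ neurons. Kcnj3, a subunit of the G protein-gated potassium channels that dampen neuronal firing, was at 25.5, 30.7, 28.7 and 26.1 CPM in C57BL/6 and 2.27 to 19.9 CPM in the others, with a median of 8.68 (log2 fold change 1.71 ± 0.19, adjusted p = 1.45e-08). Fam126a, which encodes hyccin of a phosphatidylinositol 4-kinase complex, was at 5.44, 2.32, 5.62 and 5.67 CPM against 7.53 to 30.8 (median 15.9; log2 fold change -1.71 ± 0.21). Gm42743, a predicted gene, had 3 counts in C57BL/6 and 733 in the others, with a summed rate 30.0 times higher there (95% counting interval 10.2 to 146). In each of these 3 genes the C57BL/6 mice did not overlap the others. None of the 3 passed the interaction test of a difference from Drd1+ neurons (described below). The difference between clusters was 0.65 ± 0.26 for Kcnj3 (adjusted p = 0.559), -0.85 ± 0.27 for Fam126a (adjusted p = 0.217) and -0.12 ± 2.91 for Gm42743. Ntn4 did not pass the test in Drd2+ neurons, where it was low in all strains (0.913 ± 0.699 CPM in C57BL/6, 2.82 in the others, log2 fold change -1.26 ± 0.64, adjusted p = 0.234). By the same interaction test its C57BL/6 difference differed from that in Drd1+ neurons, by 5.14 ± 1.13 (adjusted p = 0.00816). That value rests on the near absence of Ntn4 from Drd1+ neurons of C57BL/6.

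Of 23 identity genes of projection neurons shared by both pathways, 4 were higher and 1 lower in Drd1+ neurons (median log2 fold change 0.06, with all tested genes at 0), and 4 and 1 of 22 tested in Drd2+ neurons (median 0.09, 0 over all). Over all tested genes 8.01% were called higher and 5.93% lower in Drd1+ neurons, and 6.87% and 4.25% in Drd2+ neurons. In each cluster this list held a higher share of genes called higher than all tested genes did, which was not tested. Both readings are of the same list in the same mice and are not independent. Rarb, a retinoic acid receptor of striatal neurons, was at 1430, 1600, 1410 and 1560 CPM in Drd1+ neurons of C57BL/6 and 929 to 1640 CPM in the others, with a median of 1170 (log2 fold change 0.33 ± 0.04, adjusted p = 3.5e-07). A/J reached its level, with a mean of 1530 CPM. In Drd2+ neurons Rarb was higher by 0.38 ± 0.05. Foxp2, a transcription factor of projection neurons, was the lower member in Drd1+ neurons (911 against 1010 CPM, -0.15 ± 0.04, adjusted p = 0.0169), a call lost without the filter, without the block and without batch 1, 3 or 4 (adjusted p = 0.0818, 0.182, 0.145, 0.0568 and 0.104). In Drd2+ neurons the lower member was Oprm1, the mu opioid receptor (21.6 against 39.9 CPM, -0.83 ± 0.22, adjusted p = 0.0155), a call lost without batch 3 (adjusted p = 0.0633). Rgs9, a brake on dopamine receptor signalling, rose by 0.19 ± 0.05 and 0.23 ± 0.05 in the 2 clusters, and Pde1b, a calcium-dependent phosphodiesterase, by 0.27 ± 0.05 in each. The call of Pde1b was lost in both clusters without the batch as a block (adjusted p = 0.0829 and 0.0769), that of Rgs9 in Drd1+ neurons without batch 2 (adjusted p = 0.0602), and that of Rgs9 in Drd2+ neurons against the 4 classical laboratory strains (adjusted p = 0.0533).

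In the neuronal clusters pathway markers were called in 3 cases. Of 9 genes of the direct pathway, 0 were higher and 2 lower in Drd1+ neurons (median -0.06), where 5.93% of all tested genes were lower. Tac1, the precursor of substance P, was at 243, 222, 334 and 293 CPM in C57BL/6 and 212 to 681 CPM in the others, with a median of 321, so the groups overlapped (log2 fold change -0.28 ± 0.08, adjusted p = 0.0121). That call was lost without batch 2 (adjusted p = 0.0772) and without the batch as a block (adjusted p = 0.433). Eya1, a developmental transcription cofactor, was lower by 0.55 ± 0.17 in Drd1+ neurons and by 1.12 ± 0.32 in Drd2+ neurons, and lost its call without batch 1 or 3 in the former (adjusted p = 0.112 and 0.131) and without batch 2, 3 or 4 in the latter (adjusted p = 0.0776, 0.0967 and 0.0738). Of 9 genes of the indirect pathway none was called in Drd2+ neurons (2 values show the range: Gpr52 at 0.28 ± 0.13 and Sp9 at -0.10 ± 0.14), and Drd1 and Drd2 differed by -0.06 ± 0.06 and 0.10 ± 0.06 in their own clusters.

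Subunits of the GABA-A receptor, the chloride channel of fast inhibition, were higher where they were called. In Drd1+ neurons 4 of 12 were higher and 0 lower (median 0.15), and in Drd2+ neurons 5 of 12 and 0 (median 0.14), beside 8.01% and 6.87% of all tested genes called higher and a median of 0 in each. Gabra2 was at 526, 474, 480 and 465 CPM in Drd1+ neurons of C57BL/6 and 319 to 423 CPM in the others, with a median of 374. All 4 mice were above the other 28 (log2 fold change 0.39 ± 0.05, adjusted p = 6.39e-09). In Drd2+ neurons Gabra2 was at 559, 503, 457 and 487 CPM against 311 to 493, and the groups overlapped slightly (log2 fold change 0.41 ± 0.05). Gabrg3 was higher by 0.52 ± 0.05 and 0.55 ± 0.05 in Drd1+ and Drd2+ neurons. Its levels in Drd1+ neurons were 456 CPM in CAST/EiJ and 531 in PWK/PhJ, 1050 to 1500 in the other 5 strains and 1380 ± 114 in C57BL/6. Against the mean of the classical laboratory strains the difference of Gabrg3 was 0.08 (adjusted p = 0.406) in Drd1+ neurons and 0.22 (adjusted p = 0.00223) in Drd2+ neurons. Gabra5 was higher by 0.49 ± 0.11 in Drd1+ neurons, a call lost without batch 3 (adjusted p = 0.0566) and against the classical strains (adjusted p = 0.137).

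Gabra2 is also one of 11 genes in which C57BL/6 substrains are known to carry variants. As background, C57BL/6J carries an intronic deletion that lowers Gabra2 and a deletion of exons of Nnt, a mitochondrial transhydrogenase, and C57BL/6N carries neither. Nnt was at 3.76, 1.96, 2.46 and 2.59 CPM in Drd1+ neurons of C57BL/6 and 1.68 to 7.99 CPM in the others, with a median of 3.7. The groups overlapped, and Nnt did not pass the test (log2 fold change -0.50 ± 0.26, adjusted p = 0.213). Ide, the insulin-degrading enzyme, was higher by 0.52 ± 0.11 in Drd1+ neurons (40 against 27.9 CPM, adjusted p = 0.0011). Cyfip2, which carries a missense variant in C57BL/6N, differed by 0.11 ± 0.07 (adjusted p = 0.288).

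Netrins and their receptors guide axons and, in adults, regulate synapses. In Drd1+ neurons 3 of 11 tested were higher and 1, Ntn4, lower (median 0.11), beside 8.01% and 5.93% of all tested genes. The list was chosen with earlier results of these data known, so these counts are no independent evidence. The smallest of the 3 increases, that of the netrin receptor Dcc (0.17 ± 0.05), lost its call without the block (adjusted p = 0.146) and without batch 1 (adjusted p = 0.114). Unc5c, a repulsive netrin receptor, was at 210, 197, 185 and 183 CPM in C57BL/6 and 56.2 to 205 CPM in the others, with a median of 137 (log2 fold change 0.62 ± 0.10, adjusted p = 9.44e-05). Ntng1, a membrane-anchored netrin G that binds other partners than the classical receptors, was at 95.2, 93, 79.5 and 86 CPM against 7.57 to 147 (log2 fold change 1.03 ± 0.18), and NZO/HlLtJ was above it at 101 CPM. Ntn1 did not pass the test (9.83 against 17.4 CPM, adjusted p = 0.0653).

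**Figure D3:**
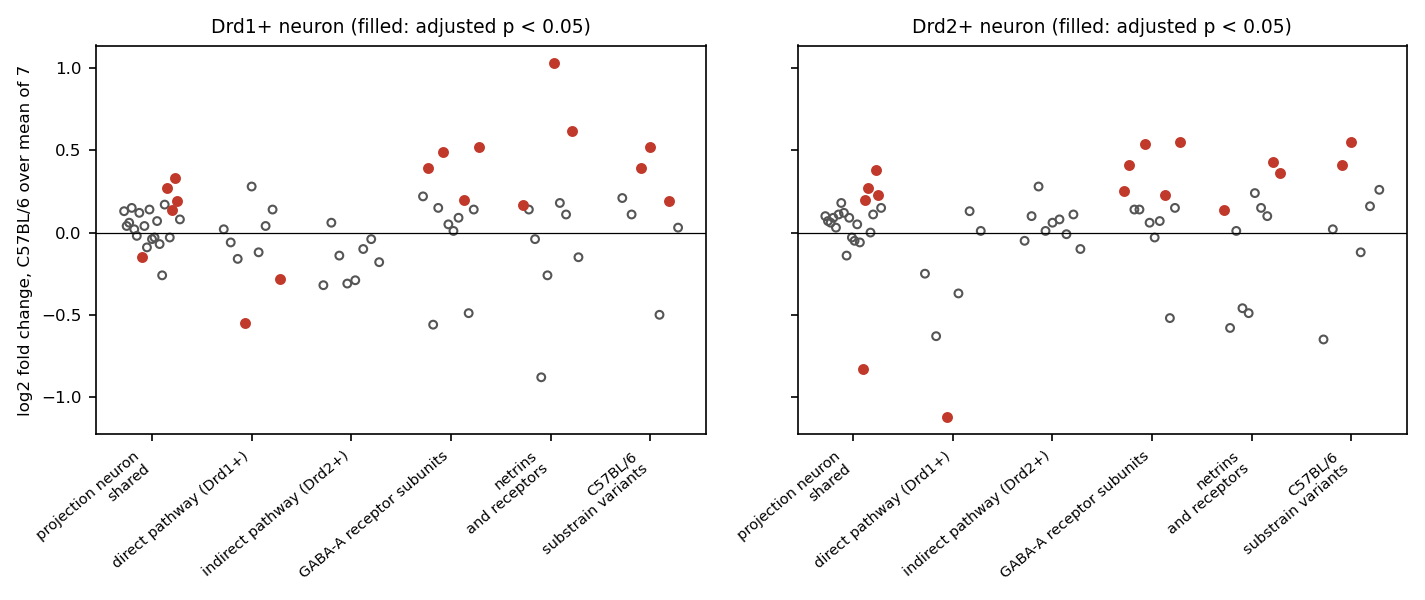
Log2 fold change of C57BL/6 over the mean of 7 strains for the tested members of 6 gene lists in Drd1+ neurons (left) and Drd2+ neurons (right). Filled red points passed an adjusted p under 0.05, and open points did not. Ntn4 (-6.47 and -1.26) was left out of both panels. Called GABA-A receptor subunits are all above 0, and genes of the indirect pathway are all open.

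Oligodendrocytes showed the greatest increase of all clusters among the named genes. Thsd4 encodes a matrix protein that binds fibrillin. Its level was 71.5, 90.7, 49.6 and 72.8 CPM in C57BL/6 and 0 to 6.38 CPM in the others, with a median of 0.568. The 4 C57BL/6 libraries held 192 counts and the other 28 held 28 (log2 fold change 5.66 ± 0.28, adjusted p = 5.66e-33). Thsd4 lies on chromosome 9 at 59966931 to 60522113. Tnni1, troponin I of slow skeletal muscle, was at 108, 106, 130 and 114 CPM against 2.98 to 30.4 (median 13.3; log2 fold change 3.05 ± 0.15), and A330072L02Rik at 111, 69.3, 116 and 102 CPM against 0 to 34.7 (median 3.16; log2 fold change 4.62 ± 0.21). Piezo2, a mechanically gated channel, was at 22.7, 42.9, 35.4 and 38.5 CPM against 0 to 19.8 (median 6.4; log2 fold change 2.48 ± 0.28). For all 4 genes C57BL/6 stood above every other mouse.

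Pde4d, a cyclic AMP phosphodiesterase, was below all other mice in oligodendrocytes. It was at 171, 257, 177 and 192 CPM in C57BL/6 and 278 to 1880 CPM in the others, with a median of 687 (log2 fold change -1.81 ± 0.09, adjusted p = 1.81e-33). The strains were graded, from 305 CPM in 129S1/SvImJ to 1680 in PWK/PhJ. Shmt1, an enzyme of one-carbon metabolism, was at 3.4, 9.89, 2.36 and 5.49 CPM against 11 to 128 (median 41.5; log2 fold change -2.83 ± 0.32). Dlk2, a membrane protein related to Notch ligands, was at 5.67, 4.95, 2.36 and 4.12 CPM against 6.4 to 47.5 (median 25.2; log2 fold change -2.26 ± 0.34). Rusc2, a trafficking adaptor, was lower by 0.52 ± 0.12.

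Of 22 oligodendrocyte and myelin genes, 1 was higher and 0 lower (median 0.02, 0 over all tested genes), a count near the share of all tested genes called higher (5.25%) or lower (2.98%). This was Gjc3, a gap junction protein (698 against 555 CPM, log2 fold change 0.35 ± 0.07), whose call was lost against the classical strains (0.23, adjusted p = 0.0532). Apbb1ip, listed as a microglial gene, was at 37.4, 23.1, 26.0 and 41.2 CPM in oligodendrocytes of C57BL/6 and 0 to 27.2 CPM in the others (log2 fold change 2.79 ± 0.27, adjusted p = 1.21e-14). It was at 23.3 CPM in 129S1/SvImJ and 23 in NOD/ShiLtJ, and at 0.683 in A/J. The summed microglial list was at 223 to 298 CPM in oligodendrocytes of C57BL/6 and 176 to 298 in the others, with 5 of its 26 genes at 0 in C57BL/6, and Csf1r stood at 6.56 CPM. In macrophages Apbb1ip was at 1620 against 1640 CPM (log2 fold change 0.01 ± 0.10). The part of other cell types in this difference was not tested.

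Astrocytes had 5 genes outside the range of the other mice. Me3, a mitochondrial malic enzyme, was at 87.4, 100, 61.6 and 54.2 CPM in C57BL/6 and 7.75 to 51.4 CPM in the others, with a median of 21.9 (log2 fold change 1.80 ± 0.23, adjusted p = 2.49e-09). Gm12239, a predicted gene, was at 534, 547, 637 and 556 CPM against 22.8 to 461 (median 210; log2 fold change 1.60 ± 0.12). Sparcl1, also called hevin, is secreted by astrocytes and promotes synapse formation. It was at 2050, 2080, 2120 and 1990 CPM against 2230 to 4410 (median 2830), below every other mouse (log2 fold change -0.51 ± 0.08, adjusted p = 9.56e-06). Prnp, the prion protein, was at 399, 420, 397 and 405 CPM against 457 to 877 (log2 fold change -0.58 ± 0.10). Ppig, a nuclear cyclophilin, rose by 0.64 ± 0.15, a call lost without batch 2 (adjusted p = 0.0788).

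Of 23 astrocyte genes, 1 was higher and 1 lower in astrocytes (median -0.03, 0.01 over all tested genes), beside 3.36% of all tested genes called. Gja1, connexin 43 of astrocyte gap junctions, was at 839, 874, 959 and 1020 CPM in C57BL/6 and 832 to 1830 CPM in the others, with a median of 1230 (log2 fold change -0.42 ± 0.09, adjusted p = 0.0017). Sox9, a glial transcription factor, was called higher at 0.44 ± 0.13 (adjusted p = 0.0301) and lost the call in 6 of 9 alternatives, with adjusted p up to 0.273. C57BL/6 astrocyte libraries held 78 to 165 nuclei.

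Macrophages had 3 such genes. Trim12a, of a family of antiviral ubiquitin ligases, was at 132, 163, 184 and 112 CPM in C57BL/6 and 0 to 30.0 CPM in the others, with a median of 0 (log2 fold change 4.73 ± 0.48, adjusted p = 2.86e-13). It had 58 counts in C57BL/6 and 16 in the others, with none in 129S1/SvImJ. Near-identical copies of Trim12a lie beside it, so the count is uncertain. Nhs, an X-linked regulator of the actin cytoskeleton, was at 13.9, 13.6, 0 and 30.4 CPM against 99.6 to 888 (median 441). Its 6 counts in C57BL/6 compare with 1250 in the others (log2 fold change -4.59 ± 0.34, adjusted p = 3.18e-20). Ssbp2, a cofactor of LIM-domain transcription complexes, was at 285, 217, 311 and 233 CPM against 354 to 886 (log2 fold change -1.08 ± 0.16).

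Of 23 tested genes of microglia and macrophages, 1 was higher and 0 lower in macrophages (median -0.04, 0.02 over all tested genes), a count near the 3.47% of all tested genes called higher. Fcrls, an Fc receptor-like gene that marks microglia, was at 514, 745, 783 and 792 CPM in C57BL/6 and 0 to 990 CPM in the others, with a median of 55.2. Its high level was shared with CAST/EiJ (905 CPM), and the other strains were at 6.54 to 132 CPM (log2 fold change 3.58 ± 0.19, adjusted p = 1.83e-29). H2-K1, a class I histocompatibility gene, was at 90.3, 163, 115 and 173 CPM against 9.83 to 156 (log2 fold change 1.30 ± 0.33, adjusted p = 0.0056), a call lost without batch 4 (adjusted p = 0.18). Fcrls and H2-K1 have close relatives and strain haplotypes, so their counts are uncertain. Of 27 genes of antigen presentation and interferon response, 6 were tested in macrophages, and H2-K1 was the only one called, beside 4.9% of all tested genes.

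**Figure D4:**
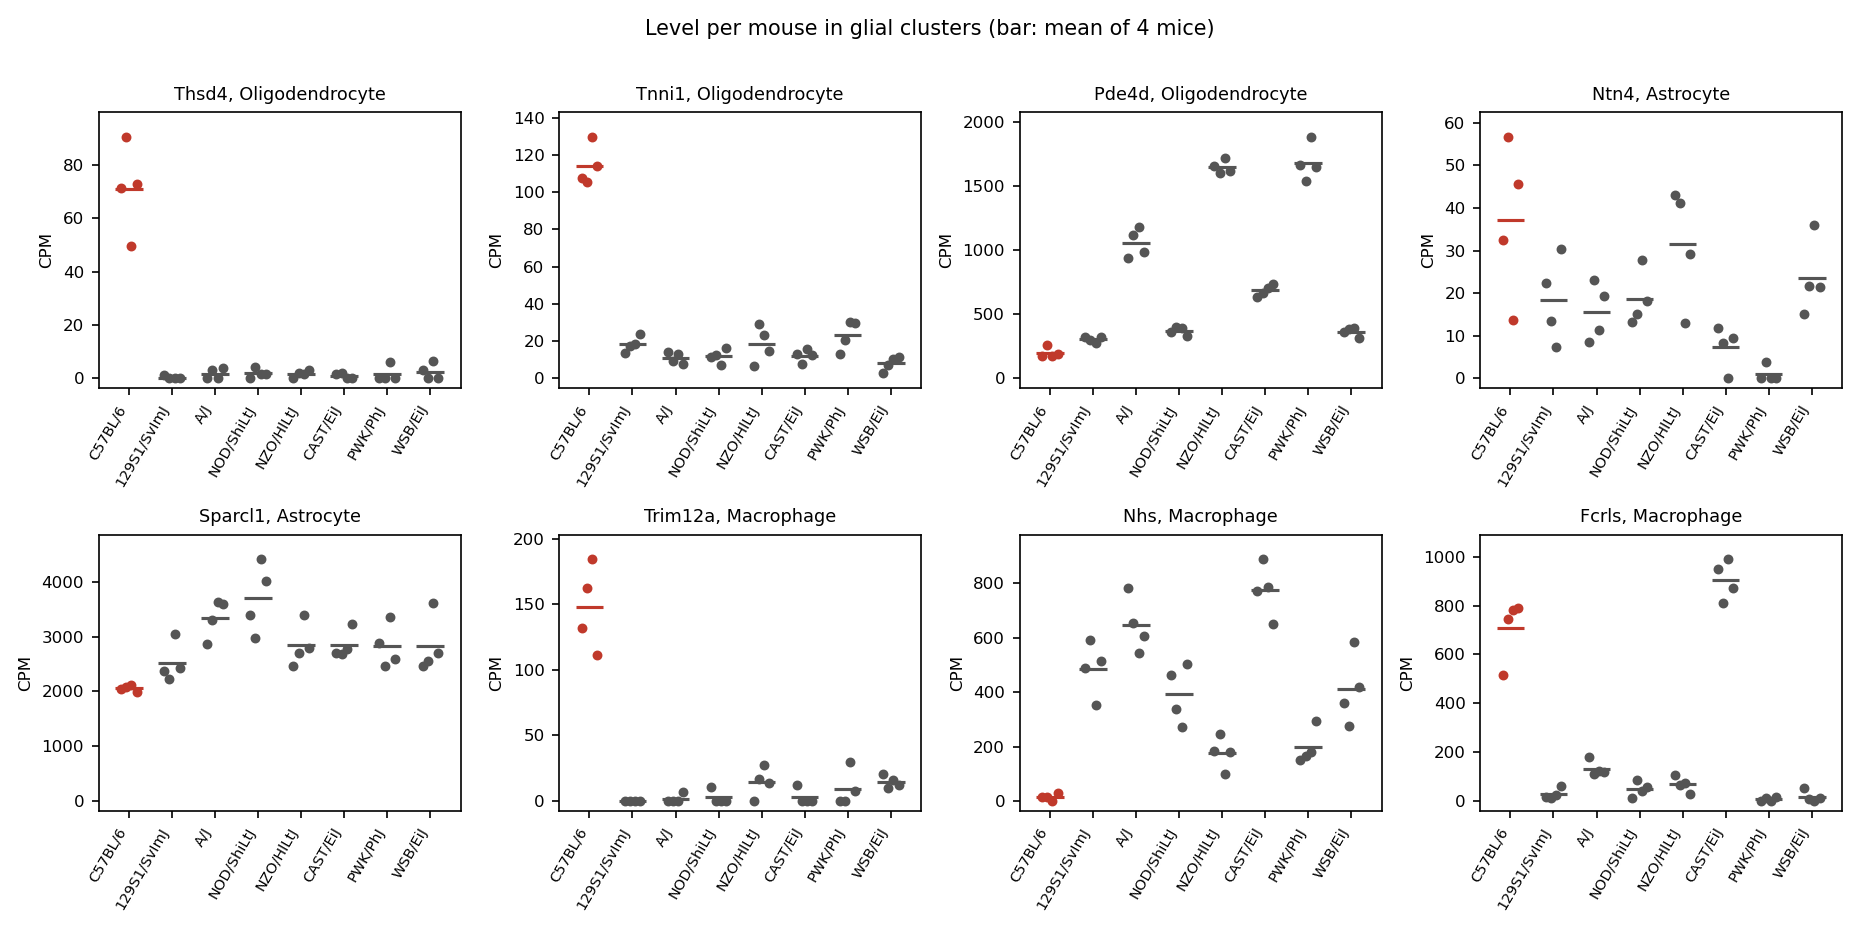
Level of 8 gene and cluster pairs in oligodendrocytes, astrocytes and macrophages in CPM, 1 point per mouse, with C57BL/6 in red and the other strains in grey. Horizontal bars are means of 4 mice. Thsd4, Tnni1 and Trim12a stand above all other mice in C57BL/6, Pde4d, Sparcl1 and Nhs stand below them, Ntn4 in astrocytes overlaps, and Fcrls is high in C57BL/6 and CAST/EiJ.

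Of 3235 genes tested in all 5 clusters, 1 was called higher in all of them and 2 lower. A930015D03Rik, a long noncoding RNA on chromosome 17 (35994504 to 36038174), was at 94.3, 90.0, 107 and 96.8 CPM in Drd1+ neurons of C57BL/6 and 19.6 to 58.7 CPM in the others. The log2 fold change of A930015D03Rik was 1.53 ± 0.07 there and 1.70 ± 0.09 in Drd2+ neurons. Oligodendrocytes gave 0.61 ± 0.15, astrocytes 1.08 ± 0.23 and macrophages 1.05 ± 0.30. The last 2 calls were lost without batch 1 (adjusted p = 0.0591 and 0.555), and that in macrophages also without batch 3 (adjusted p = 0.105) and with DESeq2 (adjusted p = 0.0526). Catspere2, an auxiliary subunit of the sperm calcium channel, fell by 0.60 ± 0.06 in Drd1+ neurons and by 2.08 ± 0.24 in oligodendrocytes. C57BL/6 was not its lowest strain in Drd1+ neurons (135 ± 9.38 CPM), where CAST/EiJ stood at 56.1 and PWK/PhJ at 535. Catspere1 and Catspere2 are neighbouring copies 20.9 kb apart, so reads may be split between them. Sfi1, a centrin-binding protein of the centrosome, fell by 0.66 ± 0.11 in Drd1+ neurons and by 2.33 ± 0.25 in macrophages, and is also part of a multicopy region. Neither gene kept its calls in all 5 clusters under every alternative. Catspere2 lost its call in macrophages in 6 of 9 alternatives, namely without the filter, with DESeq2, without batch 1, 2 or 3, and against the classical strains (adjusted p = 0.111, 0.0835, 0.192, 0.122, 0.0883 and 0.427). Sfi1 lost its call in astrocytes without batches 1 and 2 (adjusted p = 0.21 and 0.294). Against the classical strains Sfi1 also lost its call in Drd1+ neurons, Drd2+ neurons and astrocytes (adjusted p = 0.0601, 0.0712 and 0.452).

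Whether a C57BL/6 difference itself differed between cell types was tested against Drd1+ neurons, with the mouse as a block. In Drd2+ neurons 59 of 13791 genes differed in this way (0.428%), in oligodendrocytes 332 of 13943 (2.38%), in astrocytes 157 of 14301 (1.1%) and in macrophages 124 of 14489 (0.856%). The joint filter admits a gene expressed in either cluster, so some of these genes were too low to be tested in one or both of the 2 clusters alone. Those tested in both clusters alone were 58 of 59, 271 of 332, 130 of 157 and 85 of 124. The count for Drd2+ neurons was 3 without the mouse as a block and 8 at a log2 difference of 1 or more, where oligodendrocytes had 195 and astrocytes 100. Without batch 1 the counts were 38, 184, 101 and 50. They were 201 in oligodendrocytes without batch 4, 86 in astrocytes without batch 2, and 72 and 74 in macrophages without batches 3 and 4. The 4 comparisons share the libraries of Drd1+ neurons.

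Between Drd1+ and Drd2+ neurons, 3 genes were named. Fstl5, a secreted protein of the follistatin family, was at 194, 228, 155 and 175 CPM in Drd1+ neurons of C57BL/6, near the median of 185 of the others. In Drd2+ neurons it was at 43.8, 70.1, 39.9 and 61.8 CPM against a median of 140. Its C57BL/6 difference was 0.19 ± 0.07 in Drd1+ and -0.93 ± 0.15 in Drd2+ neurons, and the difference between clusters was -1.13 ± 0.11 (adjusted p = 2.03e-08). Edil3, a secreted integrin ligand, gave 0.44 ± 0.13 and -0.32 ± 0.18 (difference -0.73 ± 0.09, adjusted p = 1.9e-08). The call in Drd1+ neurons was lost without batch 2, 3 or 4 (adjusted p = 0.0956, 0.136 and 0.111). Edil3 was at 30.1 CPM in CAST/EiJ and 33.7 in PWK/PhJ, and at 111 to 251 CPM in the other strains. Against the classical strains alone its difference was -0.27 (adjusted p = 0.245) in Drd1+ and -1.01 (adjusted p = 0.000703) in Drd2+ neurons. Kcnb2, a delayed rectifier potassium channel, was higher in both clusters, by 0.54 ± 0.09 and 0.97 ± 0.11 (difference 0.42 ± 0.06, adjusted p = 1.29e-07). Against the classical strains the Kcnb2 call in Drd1+ neurons was lost (0.29, adjusted p = 0.0576).

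Glial clusters gave greater contrasts. Thsd4 was at 49.5, 39.8, 36.9 and 55.8 CPM in Drd1+ neurons of C57BL/6, within the range of 17.8 to 86.0 CPM in the others, and was lower there only against the classical strains (-0.50, adjusted p = 0.000592). Its difference from oligodendrocytes was 5.90 ± 0.29 (adjusted p = 1.52e-29). Thsd4 was thus detected in Drd1+ neurons of all strains, at mean levels of 20.5 to 70.7 CPM. Cntn3, a neuronal cell adhesion protein, was at 226, 348, 326 and 192 CPM in oligodendrocytes of C57BL/6. The other strains split into 129S1/SvImJ, A/J and WSB/EiJ at 196 to 331 CPM and the remaining 4 at 2.33 to 10.8, and in Drd1+ neurons all strains were at 127 to 247 CPM (difference 2.84 ± 0.18, adjusted p = 1.62e-22). Cntn3 was also called higher in Drd1+ neurons of C57BL/6, by 0.5 (edgeR, adjusted p = 0.0013). That call was lost without batch 3 (adjusted p = 0.0666). Cdh2, N-cadherin, was at 461 ± 87.4 CPM in oligodendrocytes of C57BL/6, close to NOD/ShiLtJ at 487 and WSB/EiJ at 354, and the other 5 strains were at 54.8 to 110 (difference 1.86 ± 0.14, adjusted p = 3.01e-18).

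Ntn4 changed in opposite directions. In astrocytes it was at 32.4, 56.7, 13.7 and 45.6 CPM in C57BL/6 and 0 to 43.1 CPM in the others, with a median of 14.2, a log2 fold change of 1.60 ± 0.32 (adjusted p = 0.000374). The groups overlapped, and against the classical strains the difference was 0.87 (adjusted p = 0.146). The difference between astrocytes and Drd1+ neurons was 7.75 ± 0.64 (adjusted p = 1.81e-20), which rests on 1 count in Drd1+ neurons of C57BL/6. Vit, an extracellular matrix protein, was at 3.09, 2.94, 2.46 and 3.03 CPM in Drd1+ neurons of C57BL/6 and 2.95 to 91.7 CPM in the others. In astrocytes Vit was at 44.9, 60.1, 34.2 and 42.8 CPM against a median of 19.0 (difference 4.15 ± 0.38, adjusted p = 1.22e-16). Its call in astrocytes alone was lost without batch 2 (adjusted p = 0.0554). Dach1, a transcription factor, was at 282 ± 42.8 CPM in astrocytes of C57BL/6 against 101, and at 1080 ± 139 against 1130 in Drd1+ neurons (difference 1.65 ± 0.17, adjusted p = 1.53e-13).

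In macrophages Nhs fell more than in Drd1+ neurons, where it was at 50.1 ± 1.35 CPM against 74.1 (difference -4.18 ± 0.41, adjusted p = 6.32e-20). Nrp1, a receptor for semaphorins and VEGF, was at 354, 230, 196 and 345 CPM in macrophages of C57BL/6. NOD/ShiLtJ and NZO/HlLtJ were also high, at 261 and 365 CPM, and the other 5 strains were at 10.2 to 31.2 (difference 2.44 ± 0.29, adjusted p = 7.8e-14). Magi1, a scaffold of cell junctions, was higher in macrophages (1.24 ± 0.16) and lower in Drd1+ neurons (-0.60 ± 0.06), a difference of 1.83 ± 0.19 (adjusted p = 1.07e-17). Macrophage levels of Magi1 followed another split, with 129S1/SvImJ, A/J and NZO/HlLtJ at 540 to 760 CPM beside C57BL/6 at 697 ± 108, and the other 4 strains at 120 to 268.

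**Figure D5:**
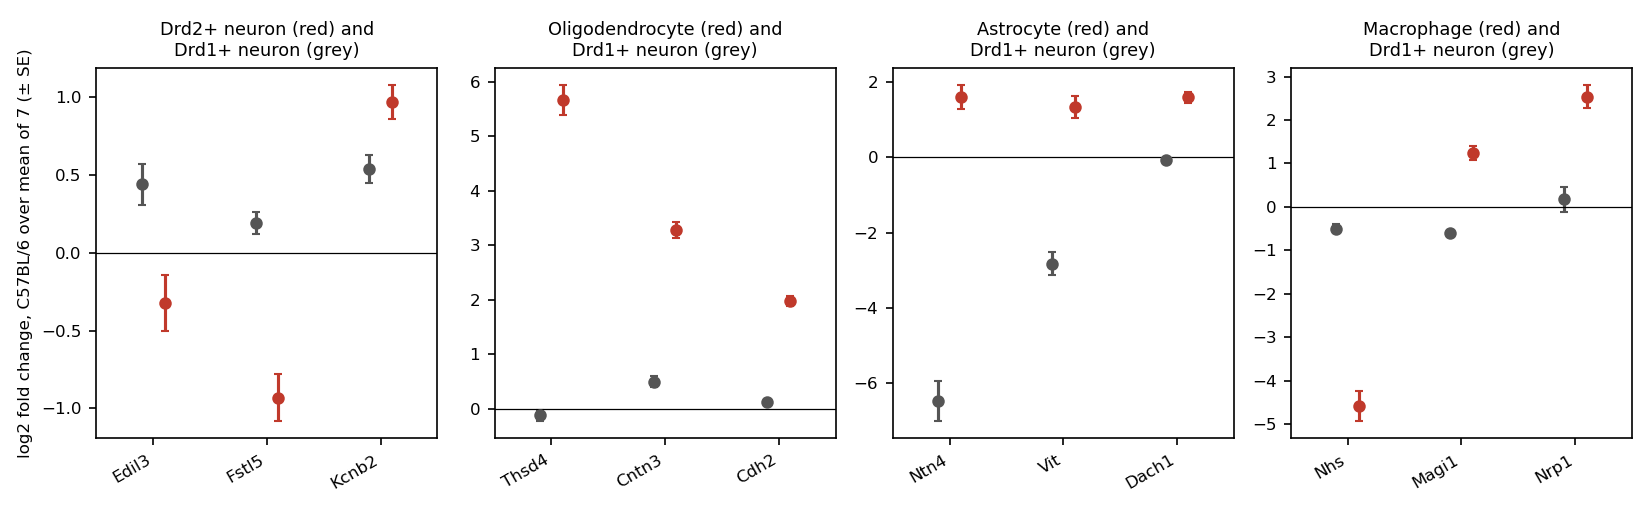
Log2 fold change of C57BL/6 over the mean of 7 strains with its standard error, for the 3 genes named in each comparison of a cluster (red) with Drd1+ neurons (grey). Vertical scales differ between panels. Ntn4, Vit and Magi1 are on opposite sides of 0 with both values called. Edil3, Fstl5, Thsd4 and Dach1 are on opposite sides with 1 of the 2 values not called.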

How the data were processed

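Single nuclei of the striatum were measured by 10x Genomics multiome. The authors deposited 1 matrix of raw counts per gene and barcode for each of 4 batches. Their deposited metadata table gives strain, doublet call and cluster as categories of an "other" kind, with strain assigned by Demuxlet, a filter on detected genes and mitochondrial share, and doublets removed with DoubletFinder, per the deposited file descriptions. Cell Ranger ARC 2.0.0, bcl2fastq 2.20.0.422 and the builds mm10 and GRCm38 are named, with no role, per the submitters' processing notes. All 55672 annotated nuclei were singlets with the same strain from RNA and open chromatin.

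Counts were summed per mouse and cluster. R 4.3.3 and edgeR 4.0.16 were used (filterByExpr, TMM scaling, robust quasi-likelihood test, Benjamini-Hochberg adjustment), with all 8 strains in the fit and the batch as a block. The block follows the design text. Libraries of one batch deviated together, with a mean correlation of 0.18 in Drd1+ neurons (-0.06 between batches), 0.16 (-0.053) in Drd2+ neurons, 0.12 (-0.039) in oligodendrocytes, 0.036 (-0.011) in astrocytes and 0.025 (-0.008) in macrophages. Deviations were taken from strain means over the batches, so they cancel within a strain. The values between batches are therefore largely fixed by those within and are no separate comparison. Comparisons between clusters used the mouse as a block in a joint fit, so a difference need not equal the gap between single fits. Shares were compared by an exact permutation within batches (4096 assignments). Python 3.11.15, numpy 2.4.6, scipy 1.17.1 and pandas 2.3.3 were used. The edgeR steps were tested on simulated data.

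Named genes were, per cluster, the called genes of at least 10 CPM outside the range of the other mice with the greatest changes (6 per direction in neurons, 4 elsewhere), genes called in all 5 clusters, the 3 with the smallest p in each comparison between clusters, and called members of gene lists. Members and lists were chosen with earlier results of these data known. CPM values of tested genes are for single mice or are means over mice, and fold changes compare log-scale strain means, so both can differ. Marker levels given to check the cluster names, and Csf1r in oligodendrocytes, came from the 4 C57BL/6 libraries summed, without TMM scaling. Marker lists were summed per library, also without TMM scaling. Alternatives were RLE scaling, no filter, DESeq2 1.42.0, no block, each batch left out, thinning, a fold limit and the 4 classical laboratory strains as reference. Each mouse is a separate animal. Intervals on counts are exact and cover counting error only. Some results are not reported here.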

Additional observations from a re-analysis of the deposited data

Results flagged for a closer look

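In 4 of 80 groups of 4 C57BL/6 libraries checked, 1 mouse stood apart from the other 3 by Dixon's criterion, which chance alone meets in about 1 of 20 groups. These were 16.3 CPM for 2310014F06Rik in Drd1+ neurons, 0.221 CPM for Ntn4 in Drd1+ neurons, 3.72 CPM for Dnah6 in Drd2+ neurons and 2.32 CPM for Fam126a in Drd2+ neurons. The value for Ntn4 is a single count, with the other 3 mice at 0. All 4 values lay outside the range of the other strains, on the side of the other C57BL/6 mice. The rule that named these genes required this, so it says nothing more about the mice that stood apart.

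The 12 genes named between clusters had a C57BL/6 difference that itself differed from that in Drd1+ neurons by an interaction test. On the log2 scale the difference was -0.73 for Edil3, -1.13 for Fstl5 and 0.42 for Kcnb2 in Drd2+ neurons. It was 5.90 for Thsd4, 2.84 for Cntn3 and 1.86 for Cdh2 in oligodendrocytes. In astrocytes it was 7.75 for Ntn4, 4.15 for Vit and 1.65 for Dach1. In macrophages it was -4.18 for Nhs, 1.83 for Magi1 and 2.44 for Nrp1. These genes were chosen by their p-values, so the sizes describe the choice.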

How the results depend on the processing

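RLE scaling, DESeq2 and the absence of a filter on low counts left each count of called genes within 1.5 times its value, with 1 exception. DESeq2 called 3 astrocyte genes in all 7 pairs, against 5 in the main fit. With calls limited to changes of 1 or more on the log2 scale, the counts were 367, 297, 182, 94 and 97 in Drd1+ neurons, Drd2+ neurons, oligodendrocytes, astrocytes and macrophages, those called in all 7 pairs were 15, 11, 8 and 3 in the first 4 clusters, and those differing from Drd1+ neurons were 8, 195 and 100 in Drd2+ neurons, oligodendrocytes and astrocytes. Libraries thinned to 27325 counts gave 5, 6, 29, 18 and 36 calls in the same cluster order, with fewer genes tested. Against the 4 classical laboratory strains, astrocytes had 183 calls. DESeq2 was not run between clusters.

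Without the batch as a block, genes called in all 7 pairs were 25 in Drd2+ neurons, 14 in oligodendrocytes and 2 in astrocytes, and those differing between Drd2+ and Drd1+ neurons fell to 3 without the mouse block. Calls against the mean were 1353, 1030, 538, 210 and 151 without the block.

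Leaving out 1 batch gave 1238 to 1445, 957 to 1006, 485 to 588, 147 to 255 and 115 to 149 calls. Genes called in all 7 pairs numbered 37 to 42, 24 to 26, 12 to 14, 1 to 2 and 3 to 4. Those differing from Drd1+ neurons were 38 to 50 in Drd2+ neurons, 184 to 298 in oligodendrocytes, 86 to 136 in astrocytes and 50 to 83 in macrophages.

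For 181 results on named genes, 1468 of 1626 repeats kept direction and call, 149 lost the call, 8 gained one and 1 reversed: Edil3 in Drd1+ neurons, at -0.27 (adjusted p = 0.245) against the classical strains. The cause was not tested. No share of a cluster changed its call.

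Astrocyte libraries of C57BL/6 held 78 to 165 nuclei and macrophage libraries 61 to 109. The part of depth in their lower counts of calls was not tested apart from the thinning above, which also cut the number of genes tested.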

Other observations

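Of 7 tested netrins and receptors, 2 were higher and 2 lower in oligodendrocytes (5.25% and 2.98% of all tested genes), and 2 were higher and 1 lower in astrocytes (2.25% and 1.11%). Of these, Unc5c (0.24 ± 0.07) and Unc5d (-1.27 ± 0.42) in oligodendrocytes lost their calls under several alternatives, among them the classical strains as reference (adjusted p = 0.354 and 0.768), as did Dcc in astrocytes (0.79 ± 0.16, adjusted p = 0.244 against those strains). In oligodendrocytes Dcc, the attractive netrin receptor, was at 512, 646, 579 and 612 CPM in C57BL/6 and 62.4 to 768 CPM in the others, with a median of 327 (log2 fold change 1.14 ± 0.13, adjusted p = 4.6e-07). Its levels were 73.7 CPM in CAST/EiJ and 90.9 in PWK/PhJ, and 642 in 129S1/SvImJ. Dscam, an adhesion receptor that also binds netrin, was at 35.2, 9.89, 42.5 and 9.61 CPM against 30.2 to 262 (median 65.3; log2 fold change -1.72 ± 0.23). Adora2b, an adenosine receptor reported to bind netrin, was at 20, 3.34, 20.5 and 31.4 CPM in astrocytes of C57BL/6 against 21.3 to 222 (log2 fold change -1.55 ± 0.28, adjusted p = 5.48e-05).

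Immediate early genes, which neurons induce on activity, had 1 of 17 tested members higher in Drd1+ neurons and 1 lower in Drd2+ neurons, where 13.9% and 11.1% of all tested genes were called in either direction. Homer1 rose by 0.32 ± 0.10 in the former (adjusted p = 0.03, 0.2 without batch 2, 0.16 without batch 3 and 0.203 without the block). Jun fell by 1.20 ± 0.41 in the latter (adjusted p = 0.0447), at 1.53 against 3.66 CPM, and lost its call in 7 of 9 alternatives, with adjusted p up to 0.268. Mitochondrial transcripts and sex-linked transcripts had 0 calls in any cluster by edgeR. A further gene list holds members whose expression is known to vary between C57BL/6 and other inbred strains, Ntn4 among them. It was chosen with earlier results of these data known, so its count is no independent evidence. Of 9 tested members, 3 were lower in Drd1+ neurons (5.93% of all tested genes). These were Ntn4, Glo1 and Kcnj9, a potassium channel subunit (11 against 16.1 CPM, log2 fold change -0.46 ± 0.15, adjusted p = 0.0302), whose call was lost without batch 1, 3 or 4 (adjusted p = 0.0835, 0.133 and 0.135) and without the block (adjusted p = 0.0638).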
